A study of Mus musculus with 2 samples.

Results

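The lysosomal genes described here are 33 protein-coding genes for acid hydrolases, their activators, membrane proteins and regulators of the lysosome, chosen by gene symbol. All 33 were found by gene identifier in both libraries, among 43346 mouse genes, of which 21474 are protein-coding. RNA over 200 nucleotides long was taken from total RNA of C57BL/6J mouse liver (adult, 8 weeks old), with spike-in RNA added. The 2 libraries are numbered as biological replicates 1 and 2, and no treatment, genotype or second condition is given, so they form 1 group. Both carry the same donor identifier, and neither the sex nor the number of animals is stated. The spread between them, and each SD below, may therefore be technical in part or in whole.

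Lysosomes are acidic organelles in which hydrolases break down proteins, glycans, sulfated sugars and lipids delivered by endocytosis and autophagy. Most soluble hydrolases reach them through mannose 6-phosphate receptors, while heavily glycosylated membrane proteins line the organelle. The transcription factors TFEB and TFE3 bind E-box elements with the core CACGTG and can switch on many lysosomal genes together. In liver, hepatocytes and Kupffer cells are both rich in lysosomes, and loss of single members of the set causes lysosomal storage diseases.

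Promoter sequences of RefSeq (GRCm38.p6), reaching from 250 bases before to 50 bases after an annotated start, were available for 30 of the 33 genes. Asah1, Ctsb and Ctsh had none in that table. CACGTG, which reads the same on both strands, was present in 11 of the 30 genes (36.7%): Arsa, Ctsa, Ctsd, Ctsl, Gaa, Gla, Glb1, Lamp1, Mcoln1, Naglu and Sgsh. Among protein-coding genes with such a sequence the share was 9.24%, and among genes expressed above the filter described below it was 12.3%. The longer palindrome TCACGTGA, which contains CACGTG, was found in 4 of the 30 genes (13.3%), beside 1.46% of protein-coding genes and 2.48% of the expressed ones. These counts describe letters in the windows and do not measure binding. The following stretches are shown because they hold the longer palindrome, or, for Lamp1, the most copies of CACGTG among the members; capitals mark those letters.
Ctsa (chr2:164833748-164833796, plus strand): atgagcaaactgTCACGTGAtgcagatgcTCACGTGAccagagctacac
Ctsd (chr7:142387907-142387938, minus strand): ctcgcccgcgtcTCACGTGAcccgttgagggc
Gla (chrX:134601181-134601245, minus strand): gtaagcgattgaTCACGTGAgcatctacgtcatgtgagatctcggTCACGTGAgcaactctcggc
Mcoln1 (chr8:3500461-3500492, plus strand): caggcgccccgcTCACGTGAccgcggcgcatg
Lamp1 (chr8:13159088-13159163, plus strand): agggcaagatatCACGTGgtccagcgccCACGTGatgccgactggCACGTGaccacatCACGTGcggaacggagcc

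In Ctsa the palindromes began 13 bases before and 4 bases after 1 of its 2 annotated starts. The window at the other Ctsa start, which lies upstream, held no CACGTG. In Ctsd and Mcoln1 they began 99 and 46 bases before the start. In Gla they lay farther off, at 228 and 195 bases before the start. Lamp1 carried 4 copies of CACGTG within the last 61 bases before its start. The 11 genes with CACGTG had a median level of 4.94 TPM and the 19 without it 4.27 TPM. Their lowest genes were Sgsh, with the element, at 0.306 TPM, and Idua, without it, at 0.301 TPM. Ctsl was the highest gene with the element, at 65.2 TPM, and Lamp2 the highest without it, at 56.1 TPM, so the ranges of the sets overlapped almost fully.

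Levels are given in TPM, a transcript abundance divided by length that can be compared between genes, rescaled to leave out spike-ins (endogenous TPM). Replicate 1 held 83816487 expected counts of mouse genes and replicate 2 held 71068191. An expected count is the estimated number of fragments of a gene. The lysosomal genes took 0.299% of these counts in replicate 1 and 0.354% in replicate 2, and 0.360% ± 0.0344 of the TPM of protein-coding genes (SD, n = 2). Their summed level was 409 TPM in replicate 1 and 629 TPM in replicate 2. The TPM of the 2 libraries is offset as a whole: over 7702 expressed genes, the log2 ratio of replicate 1 over replicate 2 had a median of -0.51, so that most genes read higher in replicate 2. All 33 lysosomal genes shared this order in endogenous TPM, replicate 2 being the higher library for each. With TPM taken over protein-coding genes alone, Ctsl, Lamp2, Asah1, Gla and Idua were higher in replicate 1, and the other members in replicate 2. Ctsl then stood at 466 in replicate 1 and 450 in replicate 2.

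Of the 33 genes, 24 stood at 1 TPM or more in both libraries. Arsb, Tfe3, Tfeb, Ids and Arsa reached 1 TPM in replicate 2 alone, and Cd63, Gla, Sgsh and Idua stayed below it in both. Among protein-coding genes, 6664 of 21474 (31.0%) reached 1 TPM in both libraries. These cut-offs are in endogenous TPM. With TPM taken over protein-coding genes alone, all 33 members stood at 1 TPM or more in both libraries. The median member stood at 4.94 TPM, beside 3.81 TPM for protein-coding genes at 1 TPM or more in both libraries. From Ctsh at the top to Idua at the bottom the mean levels spanned 251-fold. The 7 highest genes, Ctsh, Ctsl, Lamp2, Lamp1, Ctsd, Psap and Ctsz, held 71.0% of the members' TPM in replicate 1 and 67.8% in replicate 2. When the genes were put in order of mean level, 17 of the 32 neighbouring pairs stood in the same order in both libraries and 15 did not. The ranges over both libraries were apart for 1 pair only, Gla over Sgsh. Both genes of a pair share the offset between the libraries, so overlapping ranges do not show that 2 genes are level. Ctsa, for example, exceeded Grn in each library, at 12.3 over 5.84 TPM in replicate 1 and 20.3 over 13.3 TPM in replicate 2.

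**Figure D1:**
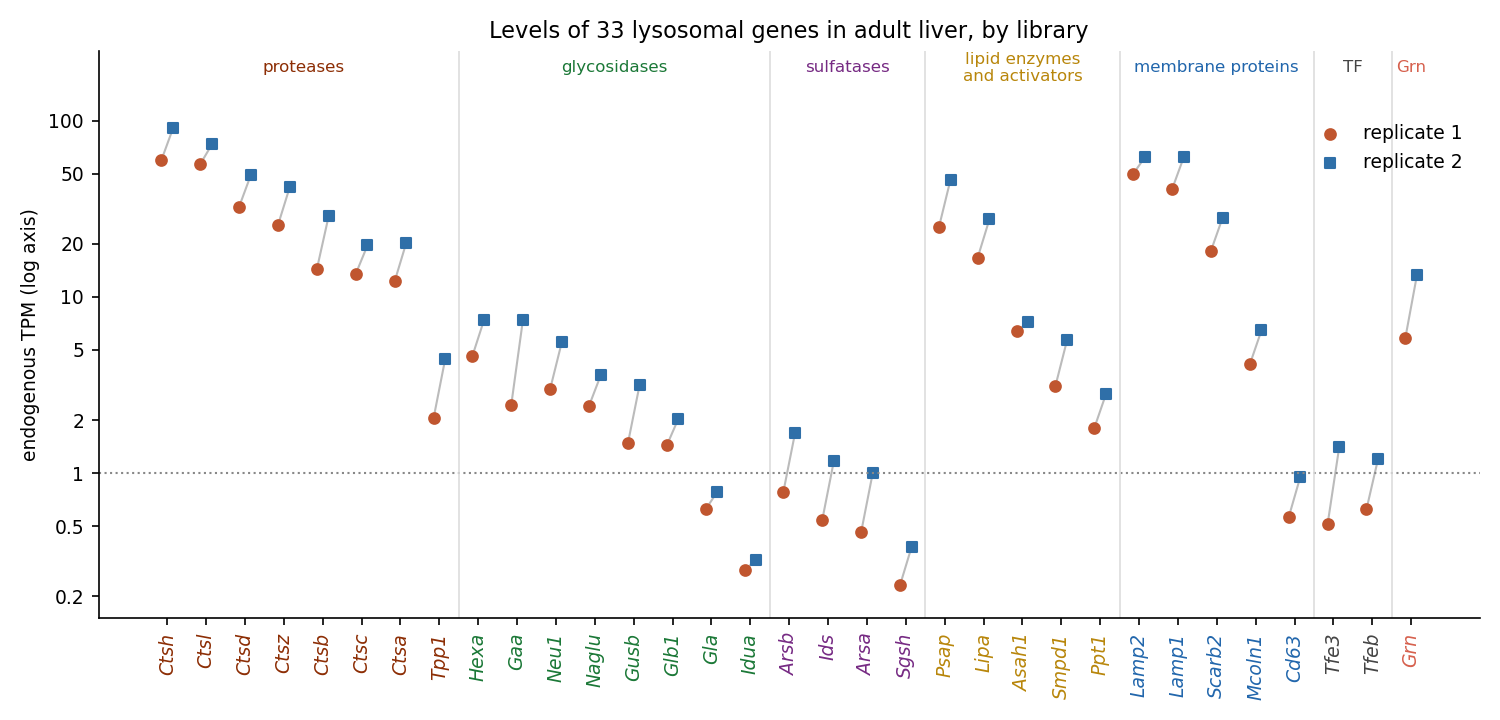
Level of each of the 33 genes in endogenous TPM (log axis), grouped by function; circles are replicate 1, squares replicate 2, the grey line joins the 2 libraries of a gene and the dotted line marks 1 TPM. TF stands for transcription factors and Grn for progranulin. Replicate 2 lies above replicate 1 for every gene, proteases and membrane proteins fill the top, and the sulfatases and transcription factors lie around or below 1 TPM.

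Proteases made up the largest class by level. The 8 protease genes summed to 217 TPM in replicate 1 and 329 TPM in replicate 2, or 52.7% ± 0.563 of the members' TPM (SD, n = 2), and all 8 passed 1 TPM in both libraries. Ctsh (ENSMUSG00000032359.10, mm10 chromosome 9 from 90054152 to 90076089) encodes cathepsin H, an aminopeptidase, and stood at 59.9 TPM in replicate 1 and 91.0 TPM in replicate 2. Ctsl (ENSMUSG00000021477.8, chromosome 13 from 64359337 to 64370890) encodes the endopeptidase cathepsin L and had 56.8 and 73.6 TPM. The order of these genes depends on the length used, as described below.

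Ctsd encodes cathepsin D, the main aspartic protease of the lysosome, and reached 32.6 TPM in replicate 1 and 49.2 TPM in replicate 2. Ctsz, for the carboxypeptidase cathepsin Z, followed at 25.7 and 42.0 TPM. Ctsb, for the cysteine protease cathepsin B, stood lower, at 14.4 and 28.7 TPM. Cathepsin D RNA was 2.26 times as abundant as cathepsin B RNA in replicate 1 and 1.72 times in replicate 2, and cathepsin L RNA 3.93 and 2.57 times as abundant as that of cathepsin B. Both proteases thus exceeded cathepsin B in each library by TPM, by a factor that was larger in replicate 1. For cathepsin D this depends on length. Per length of the most counted coding transcript, described below, its ratio was 1.84 and 1.43. By counts Ctsb, with 20603 and 26160, exceeded Ctsd, with 16085 and 15839. An 833-nucleotide transcript that GENCODE M21 names Gm49369-201 held 23.6% of Ctsd TPM in replicate 1 and 21.9% in replicate 2.

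Ctsc encodes cathepsin C, which activates serine proteases of immune cells, and had 13.5 TPM in replicate 1 and 19.6 TPM in replicate 2. Ctsa, for protective protein/cathepsin A, had 12.3 and 20.3 TPM. Tpp1, for tripeptidyl peptidase 1, was the lowest protease at 2.05 and 4.44 TPM. Cathepsin A shields the sialidase Neu1 and beta-galactosidase (Glb1) in a complex of the lysosome lumen. Within a library, Ctsa RNA exceeded Neu1 RNA 4.09-fold in replicate 1 and 3.67-fold in replicate 2, and Glb1 RNA 8.55-fold and 9.98-fold, factors that also depend on the length used.

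Membrane proteins formed the second class, with 114 TPM in replicate 1 and 160 TPM in replicate 2, or 26.6% ± 1.69 of the members' TPM. Lamp2 (ENSMUSG00000016534.11, chromosome X from 38401357 to 38456454) and Lamp1 (ENSMUSG00000031447.6, chromosome 8 from 13159161 to 13175338) encode the major glycoproteins of the limiting membrane. Lamp2 had 49.996 TPM in replicate 1 and 62.1 TPM in replicate 2, and Lamp1 40.9 and 62.2 TPM. Lamp2 was thus 1.22 times Lamp1 in replicate 1 and level with it in replicate 2, where the ratio was 1.00. The 2 genes cannot be ordered beyond their spread.

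Scarb2, which encodes LIMP-2, the receptor that carries glucocerebrosidase to lysosomes, stood at 18.3 TPM in replicate 1 and 28.2 TPM in replicate 2. Mcoln1, for the calcium channel mucolipin 1, had 4.15 and 6.47 TPM. The tetraspanin gene Cd63 was far lower, at 0.562 TPM in replicate 1 and 0.954 TPM in replicate 2, from 122 and 134 expected counts. Membrane protein genes therefore ranged over 74.0-fold. The separate pseudogene row Cd63-ps held 33.94 and 24.99 counts, and the deposited posterior SD of the Cd63 count was at most 0.213% of it.

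Genes for lipid hydrolases and their activators summed to 52.9 TPM in replicate 1 and 89.7 TPM in replicate 2, or 13.6% ± 0.951 of the members' TPM, and all 5 passed 1 TPM in both libraries. Psap (ENSMUSG00000004207.10, chromosome 10 from 60277627 to 60302597) encodes prosaposin, the precursor of the saposins that present sphingolipids to hydrolases, and had 24.8 and 46.4 TPM. Lipa encodes lysosomal acid lipase, which splits cholesteryl esters and triglycerides taken up with lipoproteins, and had 16.8 TPM in replicate 1 and 27.6 TPM in replicate 2. The hydrolases of sphingolipids were lower. Asah1, for acid ceramidase, stood at 6.37 and 7.23 TPM, and Smpd1, for acid sphingomyelinase, at 3.13 and 5.70 TPM. Ppt1, for palmitoyl-protein thioesterase 1, had 1.81 TPM in replicate 1 and 2.81 TPM in replicate 2. Prosaposin RNA exceeded acid ceramidase RNA 3.89-fold in replicate 1 and 6.41-fold in replicate 2.

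Glycosidases were much lower than proteases, although the class also has 8 genes. They summed to 16.3 TPM in replicate 1 and 30.3 TPM in replicate 2, or 4.40% ± 0.587 of the members' TPM, and 6 of 8 passed 1 TPM in both libraries. Hexa, for the alpha subunit of beta-hexosaminidase, had the highest mean, with 4.63 TPM in replicate 1 and 7.41 TPM in replicate 2. Gaa, for the acid alpha-glucosidase that degrades glycogen, had 2.45 TPM in replicate 1 and 7.42 TPM in replicate 2, the widest spread of the class, and stood level with Hexa in replicate 2.

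Neu1, for sialidase 1, had 3.001 TPM in replicate 1 and 5.54 TPM in replicate 2. Naglu and Gusb, which act on heparan sulfate and on glucuronides, had 2.41 and 3.59 TPM and 1.48 and 3.15 TPM in replicates 1 and 2. Glb1 stood at 1.44 and 2.04 TPM. Gla, for alpha-galactosidase A, had 0.622 TPM in replicate 1 and 0.783 TPM in replicate 2. Idua, for alpha-L-iduronidase, was the lowest member of all at 0.281 and 0.321 TPM, from 259 and 165 counts.

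No sulfatase passed 1 TPM in both libraries. The 4 genes summed to 2.02 TPM in replicate 1 and 4.25 TPM in replicate 2, or 0.584% ± 0.129 of the members' TPM. Arsb, for arylsulfatase B, was the highest at 0.783 and 1.69 TPM. Ids, for iduronate 2-sulfatase, had 0.542 and 1.18 TPM, and Arsa, for the arylsulfatase A that degrades sulfatides, 0.462 and 1.00 TPM. Sgsh, for N-sulfoglucosamine sulfohydrolase, had 0.231 TPM in replicate 1 and 0.382 TPM in replicate 2, from 300 and 321 counts. Every sulfatase lay below the lowest protease, Tpp1, in each library.

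The transcription factor genes Tfeb and Tfe3 were close to 1 TPM. Tfeb (ENSMUSG00000023990.14, chromosome 17 from 47737030 to 47792419) had 0.622 TPM in replicate 1 and 1.21 TPM in replicate 2. Tfe3 (ENSMUSG00000000134.13, chromosome X from 7762560 to 7775202) had 0.512 and 1.41 TPM. The ratio of Tfe3 over Tfeb was 0.823 in replicate 1 and 1.17 in replicate 2, so their order turned between the libraries. Grn (ENSMUSG00000034708.7, chromosome 11 from 102430315 to 102437048) encodes progranulin, a secreted protein also cleaved to granulins in lysosomes, and had 5.84 TPM in replicate 1 and 13.3 TPM in replicate 2. It made up 1.77% ± 0.489 of the members' TPM (SD, n = 2).

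The class shares depend on whether counts are divided by length. By expected counts, proteases took 43.5%, membrane proteins 30.9%, lipid hydrolases and activators 17.3%, glycosidases 5.20%, progranulin 1.49%, sulfatases 1.10% and transcription factors 0.416% (means of 2 libraries). The order of the classes was the same by either measure. Single genes moved more. Ctsh had 14208 counts in replicate 1 and 13398 in replicate 2, fewer than the 31508 and 26217 of Ctsl and the 42740 and 35061 of Lamp2, and its place at the top by TPM comes from short effective lengths of 752 and 732 nucleotides.

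**Figure D2:**
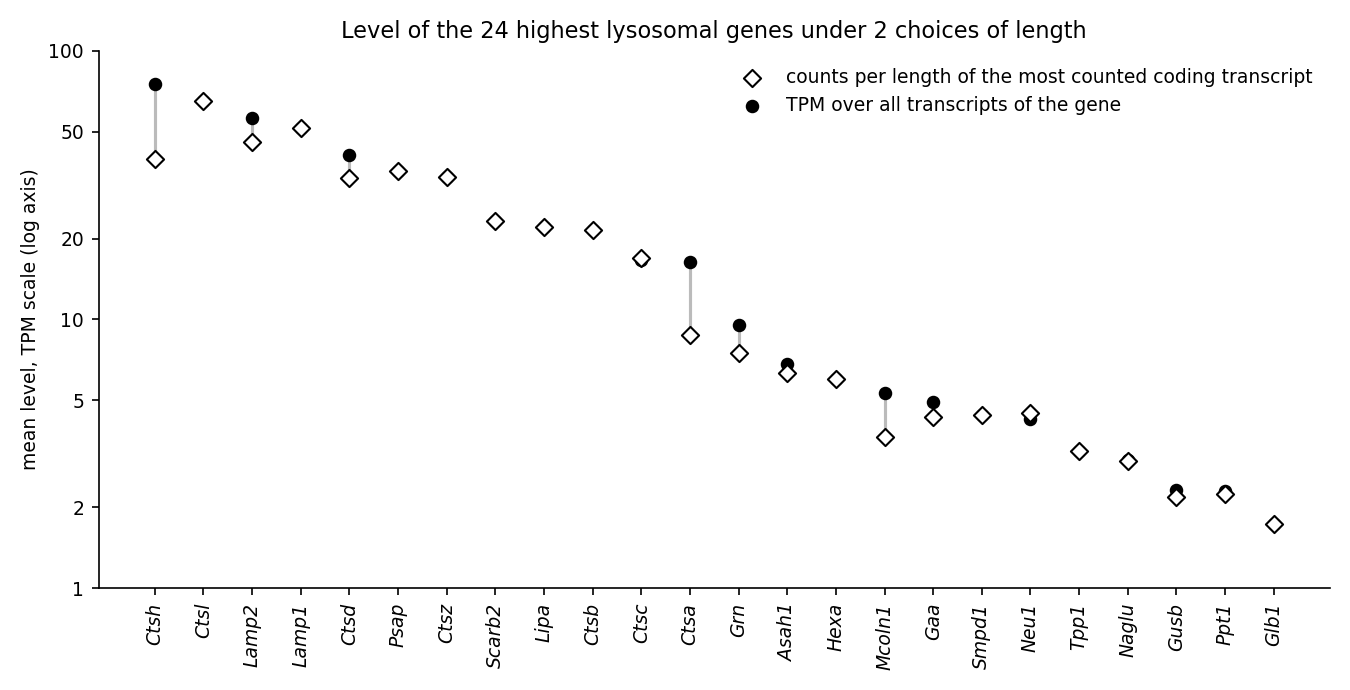
Mean level over the 2 libraries of the 24 highest members (log axis), as TPM summed over all transcripts of a gene (filled circles) and as counts per effective length of the protein-coding transcript with the most counts in the GENCODE basic set (open diamonds). Ctsh drops from 75.5 to 39.5 and Ctsa from 16.3 to 8.75 on changing the length, while members with a single transcript model, such as Ctsl and Lamp1, stay in place.

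Counts of each gene were also divided by the effective length of its most counted protein-coding transcript in the GENCODE basic set. This choice, made after seeing the data, put Ctsl first and moved Ctsh to rank 4. For Ctsh the transcript used was Ctsh-201, with 2895 counts in replicate 1 and 2334 in replicate 2. The shorter protein-coding Ctsh-204 had more, 4161 and 4351, so the rank of Ctsh depends on the restriction to the basic set. On this scale Ctsh stood at 32.1 in replicate 1 and 47.0 in replicate 2, below the 56.8 and 73.6 of Ctsl in each library. Lamp2 stood below Lamp1 on this scale, with a ratio of 0.977 in replicate 1 and 0.824 in replicate 2, and the excess of Ctsa shrank to 2.06-fold and 1.89-fold over Neu1 and to 4.74-fold and 5.26-fold over Glb1. The levels of 4 of the 33 genes moved by more than their SD. That SD includes the offset between the libraries as a whole, so genes within it may also depend on length. Mcoln1, within its SD, fell from 5.31 to 3.67.

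These shifts trace to the transcripts to which the authors' quantification assigned the reads. For Ctsh, the 631-nucleotide transcript Ctsh-204 took 52.5% of the gene's TPM in replicate 1 and 55.3% in replicate 2. Ctsh-202, annotated as a target of nonsense-mediated decay, took 34.9% and 32.9%, and Ctsh-201, of 1617 nucleotides, took 10.9% and 9%. By counts Ctsh-202 led, with 6768 and 6254. For Ctsa, the 659-nucleotide Ctsa-210 held 43.4% of TPM in replicate 1 and 45.2% in replicate 2, beside 37.2% and 34.5% for Ctsa-202, of 2534 nucleotides. Reads shared by overlapping transcripts are divided by a model, so the shares are estimates. The deposited posterior SD was 2.20% and 2.09% of the count of Ctsh-204 in replicates 1 and 2, and 1.67% in each library for Ctsa-210.

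Across the set, 10 genes had a single transcript model and 31 of 33 had the same leading transcript in both libraries. The leading transcript held over 95% of the gene's TPM in both libraries in 13 genes, and its median share was 88.8% in replicate 1 and 92.4% in replicate 2. LAMP2 is known in splice forms that differ in the membrane-spanning end and tail. Lamp2-202 held 61.4% in replicate 1 and 65.5% in replicate 2, and Lamp2-201 held 35.1% and 30.3%, so 2 protein-coding forms were abundant in both libraries. Of Psap, Psap-202 held 87.3% and 94.6%, and Psap-205 9.85% and 3.68%. Mcoln1-201 held 55.4% in replicate 1 and 59.8% in replicate 2, while the retained-intron transcripts Mcoln1-203 and Mcoln1-205 took 22.0% and 14.2% in replicate 1 and 26.1% and 5.96% in replicate 2. Arsa was led by a retained-intron transcript, Arsa-201, with 50.2% and 54.8% of TPM. By counts Arsa-201 had 184 in replicate 1 and 278 in replicate 2, beside 164 and 284 for the protein-coding Arsa-202. The lead by counts thus turned between the libraries.

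The leading transcript differed between the libraries in Gaa and Tfe3. Gaa-201 held 50.2% in replicate 1 and 33.2% in replicate 2, and Gaa-203 held 42.7% and 52.6%. In counts, Gaa-203 had 1129 in replicate 1 and 2695 in replicate 2, while Gaa-201 had 1220 and 1565, so the gap between libraries was wider for Gaa-203. In Tfe3, a gene with 14 transcript models and 456 and 855 counts, Tfe3-205 led replicate 1 with 32.7%, against 26.1% in replicate 2. Tfe3-206 led replicate 2 with 33.1%, against 13.0% in replicate 1. Tfe3-207, annotated for nonsense-mediated decay, took 21.03% in replicate 1 and 0.85% in replicate 2. The posterior SD of the Tfe3-206 count was 32.5% of it in replicate 1 and 14.9% in replicate 2, so these shares are loosely determined.

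**Figure D3:**
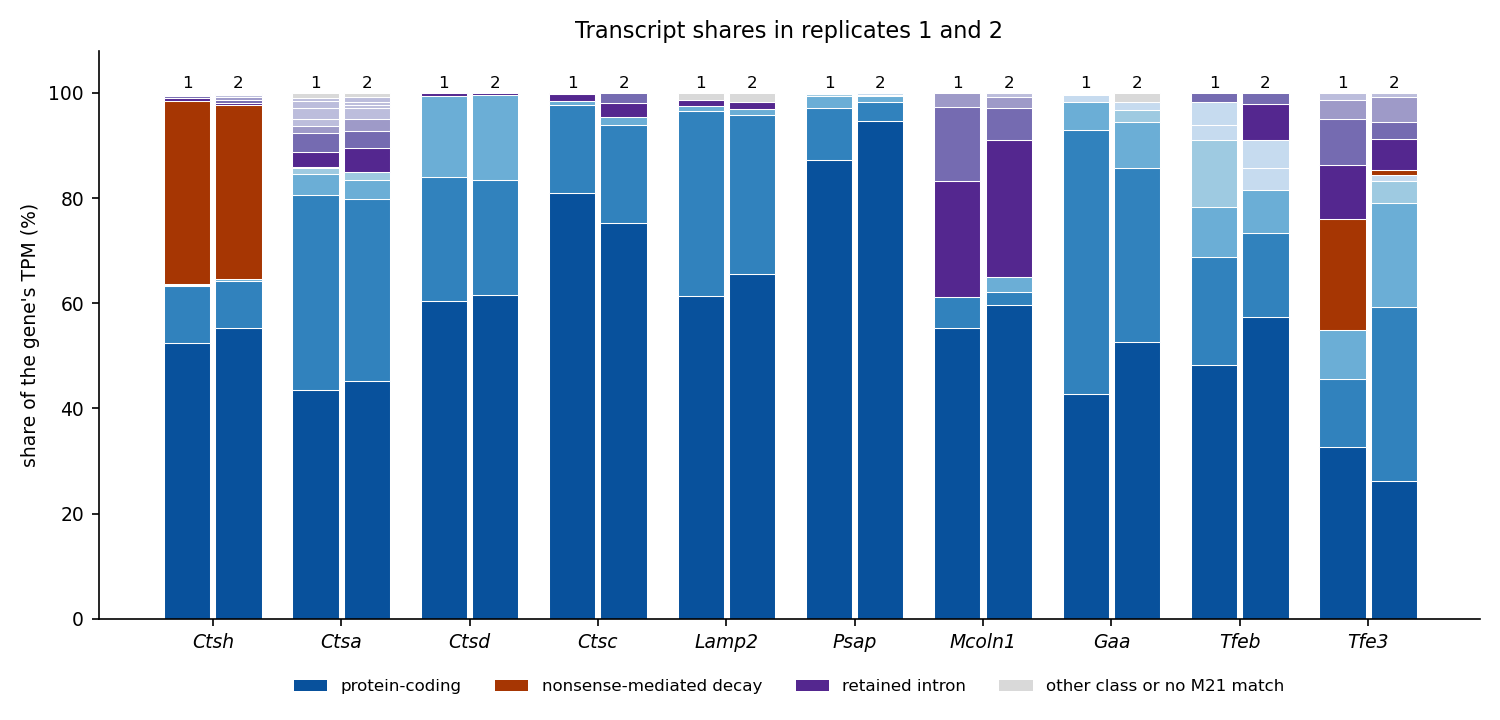
Share of each gene's TPM held by its transcripts in 10 members with several transcripts, one bar for replicate 1 (left) and one for replicate 2 (right) per gene; blue is protein-coding, orange nonsense-mediated decay, purple retained intron, grey the remainder, and shades separate transcripts in the same order in both bars. The bars of Ctsh, Ctsa, Ctsd and Lamp2 are alike in the 2 libraries, while the leading shades differ in Gaa and Tfe3.

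The libraries were then compared gene by gene as the log2 ratio of replicate 1 over replicate 2, from counts scaled by the trimmed mean of M values (TMM) with 0.5 added on the scale of counts per library total (CPM). A positive ratio means higher in replicate 1. Genes entered with a mean of 1 TPM and 10 expected counts or more, which 7702 genes and 25 of the 33 members passed. Tfe3, Tfeb, Ids, Cd63, Arsa, Gla, Sgsh and Idua did not pass. With 1 library on each side there is no test, and a difference over 1.5-fold is used as a description of size.

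Of the 25 members, 2 (8%) differed by over 1.5-fold, beside 8.45% of all 7702 genes, and none differed by over 2-fold, beside 2.36%. Both were higher in replicate 2, a direction that 3.51% of all genes took at this size, while 4.95% were over 1.5-fold higher in replicate 1. The members' share was thus near the background. Gaa (ENSMUSG00000025579.10, mm10 chromosome 11 from 119267887 to 119285454) was counted 2402 times in replicate 1 and 4467 times in replicate 2, which gave a ratio of -0.97. Grn was counted 2874 and 4620 times, with a ratio of -0.77. These 2 genes were higher in replicate 2 under every scaling tried.

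The next largest ratios were those of Tpp1 at -0.55, Arsb at -0.54, Gusb at -0.49 and Ctsb at -0.43. At the other end stood Asah1, with 4732 counts in replicate 1 and 3511 in replicate 2 and a ratio of 0.34, then Lamp2 at 0.20 and Ctsl at 0.18. Between the 5th and the 95th percentile of all genes, -0.51 to 0.58, lay 21 of the 25 members. Of the 25, 5 had ratios above 0 and 20 below, beside 55.5% above and 44.5% below among all genes. The median member ratio was -0.13 and that of all genes 0.04.

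**Figure D4:**
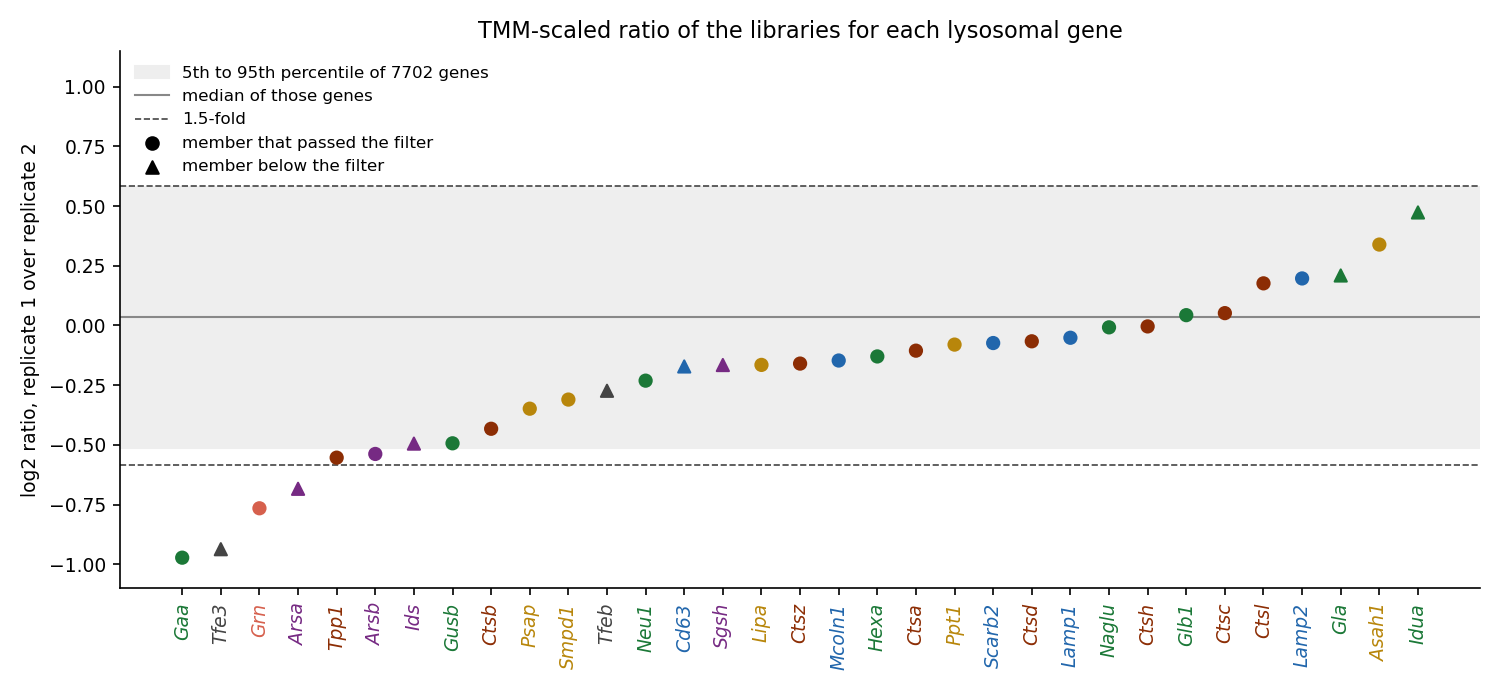
Log2 ratio of replicate 1 over replicate 2 for each member, lowest ratio on the left (proteases brown, glycosidases green, sulfatases purple, lipid enzymes and activators gold, membrane proteins blue, transcription factors grey, progranulin light red); circles passed the filter on low values and triangles did not. The grey band spans the 5th to 95th percentile of 7702 genes (-0.51 to 0.58), the solid line is their median and the dashed lines mark 1.5-fold. Gaa and Grn are the circles below the lower dashed line, and most members lie inside the band below the median of all genes.

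The sign of the smaller ratios depends on the scaling. With DESeq2 size factors the medians were -0.12 for the members and 0.05 for all genes, and the ratios of Ctsh and Naglu, both near 0, changed sign. Scaling by the summed spike-in counts gave -0.41 and -0.24, and the ratio of deposited TPM -0.68 and -0.51, so the libraries as a whole are offset under these scalings. With spike-in scaling, Asah1 and Idua alone of the 33 had ratios above 0, and with TPM none had. Relative to the median of all genes, the members' median was -0.17 under either. The split of all genes over 1.5-fold turned with the scaling, from 381 higher in replicate 1 and 270 higher in replicate 2 under TMM to 174 and 1003 with spike-ins and 124 and 3160 with TPM.

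The 8 members below the filter had mean levels under 1 TPM. Tfe3 had a ratio of -0.94 and Arsa one of -0.68, both beyond 1.5-fold and higher in replicate 2. Without the filter, 4 of the 33 members and 4.04% of all genes were over 1.5-fold apart, with 794 genes higher in replicate 1 and 957 higher in replicate 2. That share is over 43346 mouse genes with a median ratio of 0. Many of these have few or no counts, and the CPM added holds their ratios near 0. All members had 122 or more counts in each library, so the shares are not like for like. Ids stood at -0.49 from 753 counts in replicate 1 and 1013 in replicate 2. Idua stood at 0.47, higher in replicate 1 under TMM and lower there by the ratio of deposited TPM, which was -0.19. The 0.5 CPM added equals 39.8 counts in replicate 1 and 37.4 in replicate 2, which draws such ratios towards 0. The 4 sulfatases all had negative ratios, which under TMM ran from -0.68 for Arsa to -0.17 for Sgsh. Their signs were the same under the other scalings, with spike-ins and TPM moving nearly all members that way.

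GC content, the share of G and C in the leading transcript, moved with these ratios in the liver libraries as a whole. Over all genes with a value that passed the filter, the ratio fell with GC content, with a bin median of 0.23 at the low end and -0.16 at the high end of 10 bins (Spearman's rho of -0.41, a description across genes that share the same 2 libraries). Members were somewhat richer in GC, with a median of 53.7% beside 49.7% for all genes, and ran from 38.7% in Lamp2 to 63.2% in Tfeb. Over the 25 members that passed, rho was -0.42. Subtracting the median of each gene's GC bin, a choice made after seeing the data, left Gaa at -0.82, Grn at -0.64 and the members' median at -0.11, and brought Lamp2 to -0.03. With that correction Tpp1, at -0.63, also passed 1.5-fold, making 3 of the 25 members, beside 7.08% of all genes.

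**Figure D5:**
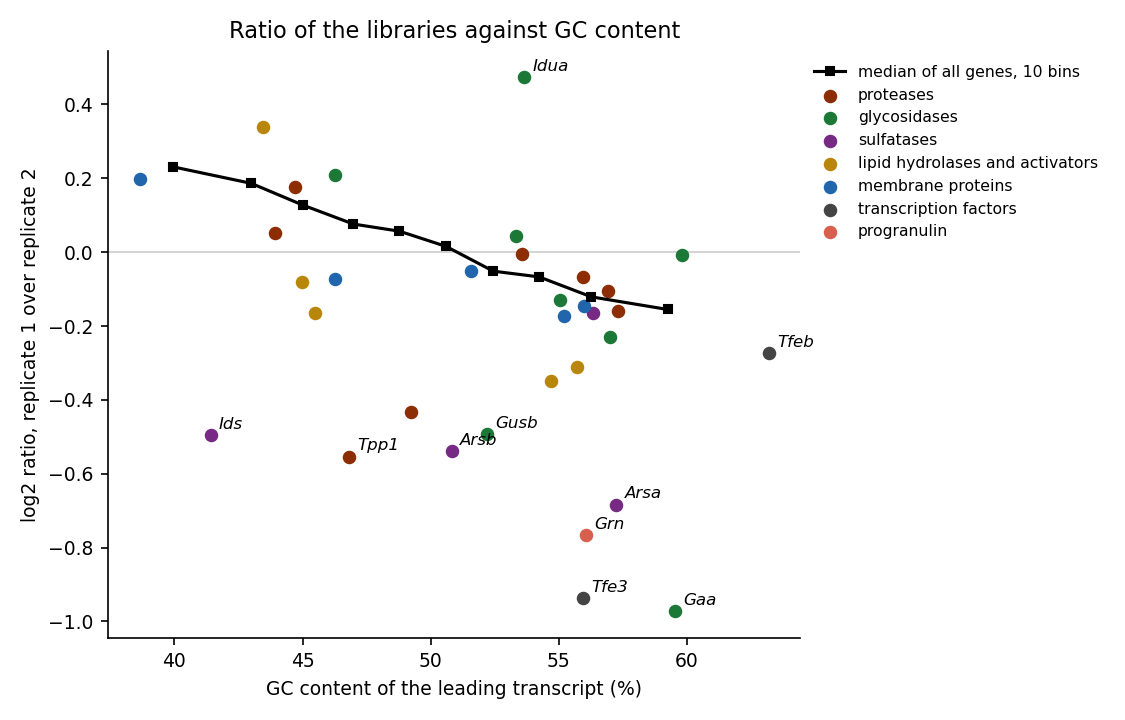
Log2 ratio of replicate 1 over replicate 2 against the GC content of the leading transcript for the 33 members (points, coloured by class) and the median of all expressed genes in 10 bins of GC content (black squares and line). The line runs from 0.23 at low to -0.16 at high GC; Gaa, Tfe3, Ids, Grn, Tpp1 and Arsa lie more than 0.56 below the median of their bin, and Idua lies 0.54 above it.

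Other genes of the lysosome were taken from 6 lists with 107 genes, of which 106 were matched; Tmem55b was not analysed here. At 1 TPM or more in both libraries stood 75 of the 106, and 81 passed the filter on ratios. Their median ratio was -0.06, and 3 of the 81 differed by over 1.5-fold, beside 8.45% of all genes. All 3 were higher in replicate 2: Atp6v0c, a subunit of the proton channel, at -0.64, Ap1m1, an adaptor subunit of clathrin coats, at -0.61, and Rptor, the mTORC1 subunit raptor, at -0.60. With DESeq2 size factors 2 remained, Rptor dropping below 1.5-fold, and none of the 81 was over 1.5-fold higher in replicate 1 under TMM.

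All 16 listed subunits of the proton pump, the V-ATPase that acidifies the lumen, stood at 1 TPM or more in both libraries. They summed to 105 TPM in replicate 1 and 166 TPM in replicate 2, led by Atp6v1e1 at 15.5 and 23.1 TPM, Atp6v0b at 13.5 and 24.5 TPM and Atp6v0e at 12.2 and 15.9 TPM. In the sorting list 9 of 15 genes passed 1 TPM in both libraries, led by M6pr, the cation-dependent mannose 6-phosphate receptor, at 11.4 TPM in replicate 1 and 14.3 TPM in replicate 2. Vps35 and Vps29, retromer subunits, had 10.2 and 13.0 TPM and 6.39 and 7.79 TPM. Of 20 genes listed for the control of TFEB and TFE3, which include related transcription factors, 16 passed in both libraries. The highest were Lamtor4 at 14.1 and 18.4 TPM and Lamtor2 at 13.7 and 15.6 TPM, both parts of the Ragulator scaffold. Ywhaz, a 14-3-3 gene, followed at 9.22 and 15.7 TPM. These 3 genes were higher than Tfeb and Tfe3 themselves in each library.

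Among other proteases, 6 of 11 passed 1 TPM in both libraries. Ctss, for cathepsin S, had 8.44 TPM in replicate 1 and 9.11 TPM in replicate 2, Lgmn, for legumain, 6.50 and 9.12 TPM, and Ctso, for cathepsin O, 5.96 and 6.58 TPM. Ctsg, for the neutrophil protease cathepsin G, had 0 counts in both libraries. Of 26 other glycosidase, sulfatase and lipid enzyme genes and their partners, 21 passed, led by Acp5, for tartrate-resistant acid phosphatase, at 10.4 and 18.6 TPM. Hgsnat, for an acetyltransferase of heparan sulfate breakdown, had 6.09 TPM in replicate 1 and 8.06 TPM in replicate 2. Of 18 other membrane proteins 7 passed, led by Laptm4a at 21.5 and 30.3 TPM, the cholesterol transporter gene Npc1 at 9.98 and 16.0 TPM and Laptm4b at 2.56 and 4.07 TPM. Lamp3 had 0 counts in both libraries.

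Markers of other cell types were read beside these values, since in bulk tissue fewer cells of a type and less RNA per cell cannot be told apart. The 6 hepatocyte markers summed to 9074 TPM in replicate 1 and 14524 TPM in replicate 2, with a log2 ratio of summed counts of -0.10 that rests mostly on Alb, itself at -0.11. Apoa1 stood at -0.72 and Cyp2e1 at 0.49, so single markers went either way. The 14 Kupffer cell or macrophage markers summed to 95.4 and 113 TPM, with a ratio of 0.22, none of them at 0 and none over 1.5-fold apart. The sum is led by the abundant Clec4f (0.54), Cd5l (0.35) and Lyz2 (0.31). Also above 0 were Vsig4 (0.49), C1qa (0.25), Aif1 (0.22), C1qc (0.20), C1qb (0.16) and Timd4 (0.06). Those below 0, with the sign of Grn and Gaa, were Marco (-0.49), Csf1r (-0.26), Cd68 (-0.26), Mpeg1 (-0.10) and Adgre1 (-0.04). The last 5 were singled out after their values were seen. Cd5l stood at 0.07 with spike-in scaling and -0.20 by deposited TPM, so the sign also depends on the scaling.

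Some lists of markers of other tissues and blood cells differed more between the libraries. The 7 pancreatic acinar markers summed to 118 TPM in replicate 1 and 41.5 TPM in replicate 2, all 7 being over 1.5-fold higher in replicate 1. The 6 adrenal cortex markers summed to 0.181 and 13.8 TPM, and the 5 skeletal muscle markers to 4.71 and 0.241 TPM. The 6 B cell markers summed to 1.80 and 11.5 TPM, led by Igkc and Ighm, and the 5 erythroid markers to 116 and 236 TPM. The 5 neutrophil markers summed to 0.522 and 1.05 TPM, with Ly6g at 0 counts and S100a9 at 27 and 34 counts. The part of RNA from these tissues and cells in the lysosomal values was not tested.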

How the data were processed

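The members and gene lists were chosen with earlier results of these data known. The authors quantified each library separately on mm10 with GENCODE M4 models, per the deposited notes; the tools for alignment and quantification are not given in the sources used. Expected counts are estimated, unnormalised fragment counts per the file headers. Deposited TPM and FPKM values are scaled by length and library; FPKM served only as an alternative threshold. Transcript shares are a deposited percent of the gene. The deposited signal columns, interval bounds of TPM and posterior SDs of counts, describe the precision of the authors' estimates. The interval's halfwidth was 1.07% to 26.2% of a member's TPM.

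Symbols, classes and coordinates came from GENCODE M21 (same assembly), matching 42462 of 43346 mouse identifiers. TPM was rescaled without spike-ins. Rounded counts were scaled with edgeR 4.0.16 (TMM factors 0.950 and 1.05 for replicates 1 and 2) or DESeq2 1.42.0 in R 4.3.3; the biological coefficient of variation from edgeR's common dispersion was 0.237 over 14703 genes. The libraries differed far beyond sampling noise and were counted as 2. Python 3.11.15 served for the rest (scipy 1.17.1, pandas 2.3.3, numpy 2.4.6). The scaling steps were checked on simulated data. With 2 libraries in 1 group no test was made. All 33 members are named; of other lysosomal lists the 3 highest genes and any over 1.5-fold apart, except items that are not reported here; of marker lists, examples from the first 3 and the 3 highest. Alternatives covered scaling, pseudocount, filter, threshold, length and each library alone.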

Additional observations from a re-analysis of the deposited data

How the results depend on the processing

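No paired analysis was possible because both libraries belong to 1 group. The 24 members detected in both libraries at 1 TPM were 12 when 10 TPM was asked for, and 24 to 29 with either library alone. All 33 passed with TPM taken over protein-coding genes, at 0.1 TPM or at 10 expected counts, and 31 passed at 1 FPKM. The mean summed level of 519 TPM was 3602 TPM when TPM was taken over protein-coding genes, and 409 to 629 TPM with one library alone. Class shares of expected counts moved by more than the SD for proteases (43.5%), membrane proteins (30.9%) and lipid hydrolases and activators (17.3%). So did those of glycosidases (5.20%) and sulfatases (1.10%). Per length of the most counted coding transcript of the GENCODE basic set, proteases took 49.3% and lipid hydrolases and activators 15.4%. The median leading transcript share of 90.6% was 94.0% by counts. The median ratio of the members moved by more than the SD of the ratio over all genes, 0.463, only with deposited TPM, to -0.68. The 2 members over 1.5-fold apart became 8 with spike-in scaling (15.3% of all genes) and 19 with deposited TPM (42.6%). Relative to the median of all genes they became 3 with spike-in scaling (8.37%) and 5 with deposited TPM (10.7%). The GC correction gave 3 (7.08%), and 2-fold gave 0 (2.36%). Without a filter on low values 4 were apart, beside 4.04% of all genes, a share that includes genes with few or no counts. Under spike-in scaling and deposited TPM, 1003 and 3160 of all genes were over 1.5-fold higher in replicate 2, so the counts and direction of members there follow the offset of all genes. Gaa and Grn kept their direction under every scaling and pseudocount tried. The 8 members below the filter had 122 to 1013 counts each and were left out for levels under 1 TPM, not for their counts.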
